A study of Homo sapiens with 32 samples.

Results

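C/D box small nucleolar RNAs (snoRNAs) are short intron-derived RNAs of the nucleolus that pair with ribosomal RNA (rRNA) upstream of a box D or D' motif and position the methyltransferase fibrillarin for 2'-O-methylation. NAT10 is the nucleolar enzyme that writes N4-acetylcytidine (ac4C), and SNORD13 is the C/D box snoRNA known to guide it to 18S rRNA, while THUMPD1 is its adapter for tRNA. The 6 C/D box snoRNAs SNORD126, SNORD87, SNORD18A, SNORD18B, SNORD18C and SNORD46 are described here, 6 of 314 genes named SNORD in the annotation. They were chosen by name with the C>T values of these libraries known. Their rise with NaCNBH3 in Wildtype and NAT10-WT cells and its loss in NAT10(-) cells are therefore a description, and calls printed for these contrasts support nothing.

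Hep3B is a human hepatocellular carcinoma line. Sodium cyanoborohydride (NaCNBH3) reduces ac4C, and reverse transcriptase then reads the reduced base as T. C>T, the percentage of T among the reads of a genomic C, taken in the sense of the gene, is therefore used as a measure of acetylation. According to the study, the treatment can also act on other modified cytosines or cause deamination. It therefore counted as ac4C only sites that fell in NAT10(-) cells. RNA of 8 genotypes was split into a NaCNBH3-treated and a mock-treated fraction, with 2 replicates of each, giving 32 libraries. Every culture, the untagged parental cells included, was kept in the degrader dTAGV1 at 100 nM over 24 h. Those parental cells are called Wildtype. In FKBP cells the endogenous NAT10 carried an FKBP12-F36V tag that the degrader recognises, and the other 6 genotypes were FKBP cells transduced by lentivirus and selected with Blasticidin-S. The control plasmid was given to NAT10(-) cells, and NAT10 without a mutation to NAT10-WT cells. The substitutions K290A and E389L change the helicase domain of the introduced NAT10, whereas H537A and G641E change its acetyltransferase (GNAT) domain. The introduced NAT10 was driven by an EF1A promoter from a vector and not by the endogenous gene. The study gives biological replicates of cells as made on separate days, and those of transduced cells as separate transductions. FKBP, NAT10(-) and the 4 mutants are together called NAT10-deficient, as a name for the groups.

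The listed positions held 1209.9 to 1732 Mb of base calls per library. The hepatocyte genes ALB, APOA1, APOA2 and SERPINA1 reached 30 reads in all 32 libraries, AFP, TTR, FGB and APOH in 12 to 29, and none of 8 blood, fibroblast or squamous genes (PTPRC, HBB, CD74, COL1A1, COL1A2, COL3A1, KRT5, KRT14) at any position. SNORD13 was covered over all of its 104 nt in all 32 libraries and THUMPD1 in none. Of the 483 exon positions of the 6 snoRNAs, 468 reached 30 reads in at least 1 library. At the sites of SNORD126 and the SNORD18 genes, depth was lowest in the NaCNBH3 library of K290A replicate 2. It held 115 to 155 reads there, beside 747 to 3203 in K290A replicate 1. The NaCNBH3 library of H537A replicate 2 was also shallow, with 128 reads at SNORD126, 170 at SNORD18B, 168 at SNORD18C and 377 at SNORD18A.

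SNORD126, SNORD87 and the SNORD18 genes lie in introns of a host gene on the same strand (GRCh38). SNORD126 (77 nt) is in intron 3 of CCNB1IP1 at chr14:20326450-20326526 on the minus strand. SNORD18A (72 nt), SNORD18B (72 nt) and SNORD18C (69 nt) are in introns 2, 4 and 6 of RPL4, which encodes a large-subunit ribosomal protein, at chr15:66503243-66503314, chr15:66502020-66502091 and chr15:66501250-66501318 on the minus strand. The sequences of SNORD126 and the SNORD18 genes, read from the genome 5' to 3' on the strand of the gene, are shown because the cytidine with the highest C>T is in each the middle base of the only CCG, which is in capitals:
SNORD126: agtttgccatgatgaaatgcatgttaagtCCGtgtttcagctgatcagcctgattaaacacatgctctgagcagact
SNORD18A: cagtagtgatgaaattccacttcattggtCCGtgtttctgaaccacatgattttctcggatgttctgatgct
SNORD18B: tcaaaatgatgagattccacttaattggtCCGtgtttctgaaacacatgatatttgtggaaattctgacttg
SNORD18C: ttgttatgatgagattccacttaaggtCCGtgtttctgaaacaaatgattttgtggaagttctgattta

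SNORD87 (89 nt) lies in intron 2 of the long noncoding RNA gene SNHG6 on the minus strand of chromosome 8, from 66922467 to 66922555, and its sequence is not printed, nor is that of SNORD46 (104 nt). Counted from the 5' end of each gene, the cytidines were SNORD126 C31, SNORD87 C34, SNORD18A C31, SNORD18B C31, SNORD18C C29 and SNORD46 C42. SNORD87 C34 and SNORD46 C42 were also the middle base of the only CCG of their genes, and in all 6 genes a T followed this CCG.

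The 5 sites of SNORD126, SNORD87 and the SNORD18 genes lay in the stretch most complementary to 28S rRNA, and the site of SNORD46 did not. The longest uninterrupted Watson-Crick match to 28S rRNA (positions of RefSeq RNA28SN2) held the site in each of those 5 genes. It spanned 12 nt in SNORD126 (28S 1315 to 1326), 14 nt in SNORD18A and SNORD18B (1316 to 1329), 12 nt in SNORD18C (1316 to 1327) and 11 nt in SNORD87 (3727 to 3737). SNORD126 and the SNORD18 genes thus matched nearly the same 28S bases, and they share an 11-nt run around the site, GTCCGTGTTTC, although SNORD126 is only 51.1% to 61.5% identical to them over its whole length. In SNORD46 the longest match was at nt 83 to 93, away from C42. On the strand of the gene, 6 to 10 bases separated the site from the next CTGA, the letters of box D and D', in these 5 genes, and 52 bases in SNORD46. The box C letters TGATGA lay upstream of the site in all 6. Of the 314 annotated SNORD genes, searched on their own strand, 232 held TGATGA (73.9%), 304 CTGA (96.8%), 81 CCG (25.8%) and 47 CCGT (15%).

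In cells given unmutated NAT10, C>T after NaCNBH3 was highest at SNORD126 and lowest at SNORD18A or SNORD46. SNORD126 C31 was read as T in 48 of 338 and 47 of 320 reads (14.2% and 14.7%) in the NAT10-WT NaCNBH3 libraries and in 13 of 293 and 32 of 571 reads (4.44% and 5.60%) in Wildtype. The matching mock libraries had 0 of 436 and 3 of 312 reads in NAT10-WT and 1 of 419 and 1 of 489 in Wildtype. Both NaCNBH3 libraries of both genotypes therefore lay above all 4 mock libraries.

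SNORD87 C34 had 157 of 1370 and 120 of 1082 reads (11.5% and 11.1%) in NAT10-WT, beside 6 of 1049 and 1 of 973 in mock. It had 51 of 797 and 76 of 1282 reads (6.40% and 5.93%) in Wildtype, beside 0 of 1035 and 1 of 1263 in mock. No library overlapped between treatments.

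The plot of C>T by library shows these levels for all 6 sites, each on its own scale.

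**Figure D1:**
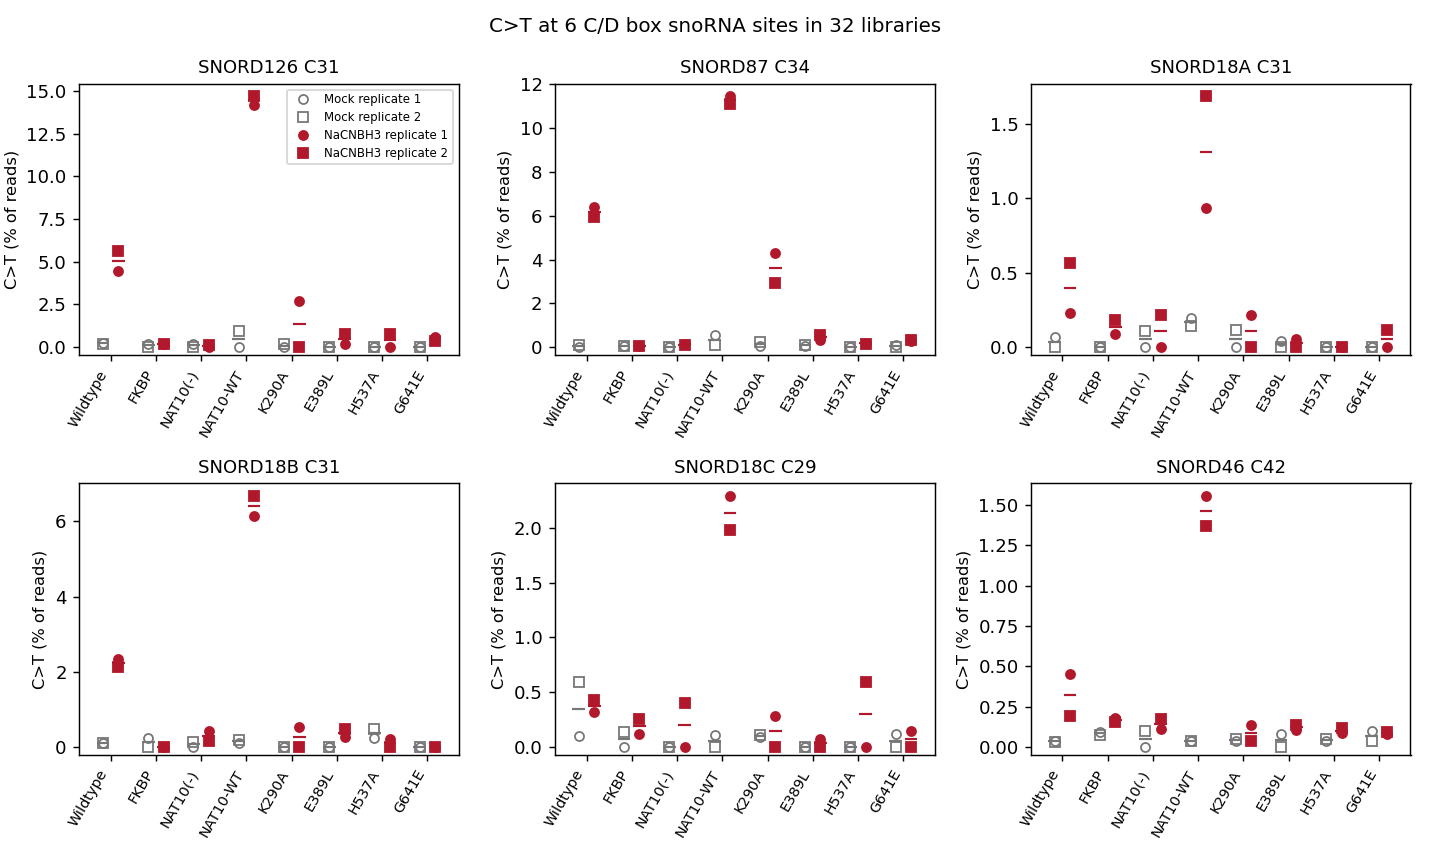
C>T (percent of reads, vertical axis) at the 6 snoRNA sites in each of 32 libraries, by genotype. Open grey symbols are mock and filled red symbols NaCNBH3 libraries, circles replicate 1 and squares replicate 2, and the short line is the mean of 2 replicates. NAT10-WT NaCNBH3 libraries are highest at every site, and K290A has 4.28% and 2.92% at SNORD87.

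The SNORD18 paralogs differed although their sites sit in the same sequence. SNORD18B C31 had 39 of 636 and 41 of 614 reads (6.13% and 6.68%) in NAT10-WT, and 16 of 684 and 25 of 1173 (2.34% and 2.13%) in Wildtype. SNORD18C C29 had 15 of 654 and 15 of 756 reads (2.29% and 1.98%) in NAT10-WT and 2 of 622 and 4 of 926 (0.322% and 0.432%) in Wildtype. SNORD18A C31 had 9 of 961 and 13 of 772 reads (0.936% and 1.68%) in NAT10-WT and 2 of 877 and 7 of 1242 (0.228% and 0.564%) in Wildtype. SNORD18B was thus the highest of the 3 in each of the 4 libraries. The mock libraries of SNORD18B had 1 read with T each in both genotypes. For SNORD18C in Wildtype they had 1 of 979 and 4 of 671 reads, so that mock and NaCNBH3 overlapped there, and in NAT10-WT 1 of 906 and 0 of 620. For SNORD18A the NAT10-WT mock libraries had 3 of 1516 and 1 of 690. The exact 95% binomial interval of SNORD18B in NAT10-WT replicate 1 (4.40% to 8.29%) lay above those of SNORD18C (1.29% to 3.76%) and SNORD18A (0.429% to 1.77%). The latter pair overlapped, as they did in replicate 2. These intervals cover counting error only.

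The paralogs are 77.8% to 84.7% identical, with an uninterrupted shared run around the site of 19 nt between SNORD18A and SNORD18B, 16 nt between SNORD18A and SNORD18C and 19 nt between SNORD18B and SNORD18C. A short fragment inside such a run cannot be placed on a single gene, so the 3 levels may share some reads. How many was not tested.

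SNORD46 C42 was the deepest site and among the lowest. It had 46 of 2955 and 43 of 3135 reads (1.56% and 1.37%) in NAT10-WT and 10 of 2208 and 6 of 3168 (0.453% and 0.189%) in Wildtype, beside 1 read of 2585 to 3090 in each of their 4 mock libraries. The order of the 6 sites was the same in both NAT10-WT replicates down to SNORD18C, and the intervals of SNORD18C, SNORD46 and SNORD18A overlapped in both. In Wildtype SNORD87 stood above SNORD126 in both replicates, with overlapping intervals.

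By Fisher's exact test on reads, NaCNBH3 against mock in each replicate, at positions with 30 reads, 5 mismatch reads and a mismatch share over 1%, the rule called SNORD126, SNORD87, SNORD18B, SNORD18C and SNORD46 higher in NAT10-WT and the first 3 in Wildtype. Across all C>T positions tested, the same rule called 10.9% of 727 in NAT10-WT and 8.74% of 732 in Wildtype. The choice of the members used this contrast, so nothing is read from the counts. SNORD18A passed in NAT10-WT replicate 2 alone.

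In NAT10-WT NaCNBH3 libraries the mean C>T exceeded 1% at 1 cytidine per gene. None of the 73 other covered cytidines of the 6 snoRNAs did so, and the highest of them had 0.302%. In single NaCNBH3 libraries of any genotype the highest of them reached 1.18% in SNORD126 and SNORD18B, 1.27% in SNORD18A and 1.19% in SNORD18C. Pooled over all genotypes, the other cytidines of a gene had 0.0367% to 0.0487% T in mock and 0.0682% to 0.104% in NaCNBH3 libraries. A small rise with NaCNBH3 was thus present at cytidines in general. It was not confined to them. At bases other than C, pooled mismatches of a gene were 0.0212% to 0.0248% in mock and 0.0328% to 0.0419% in NaCNBH3 libraries. No mismatch of any kind averaged over 5% in the mock libraries of the 6 genes, and the only one over 1% was C>T at SNORD18A C1, 2.25% in the 10 libraries that covered it.

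**Figure D2:**
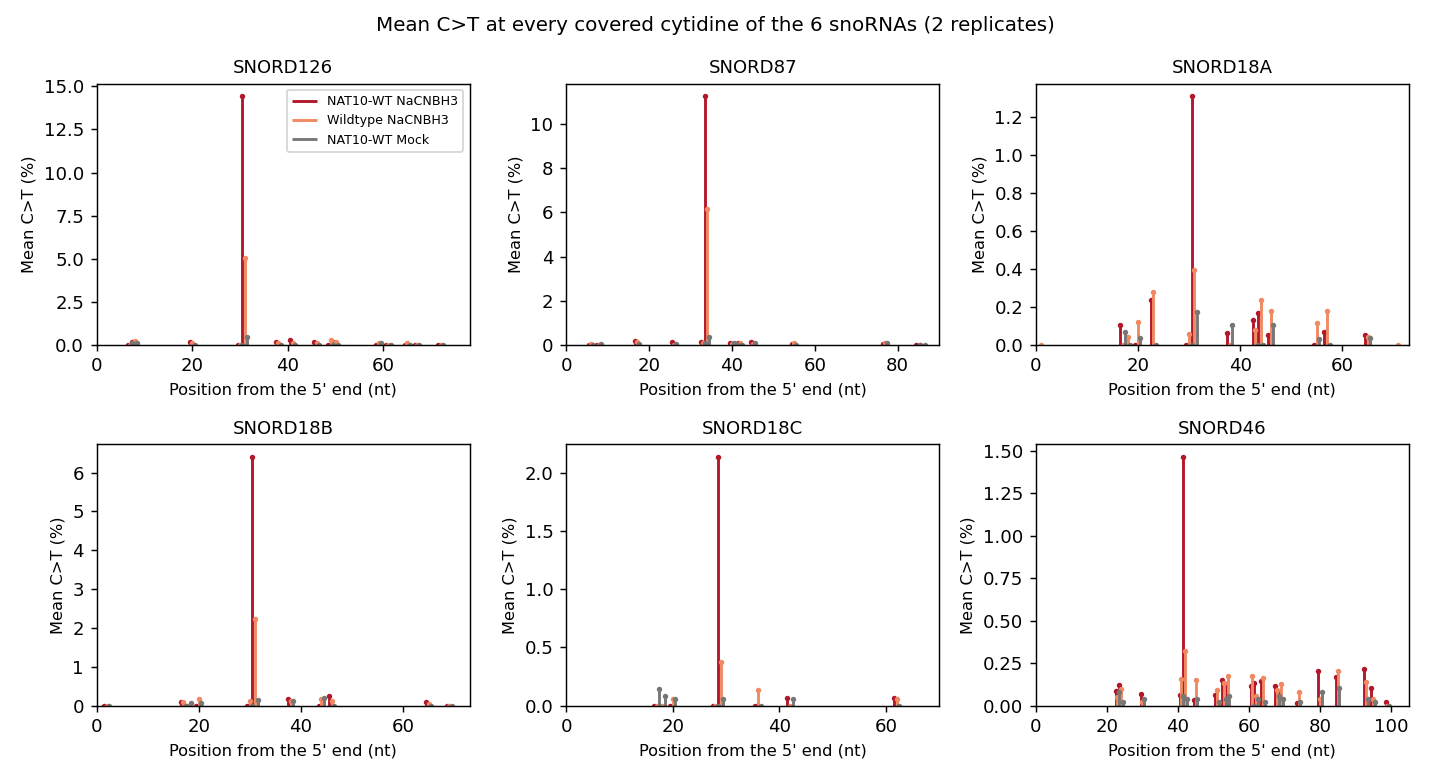
Mean C>T (percent, 2 replicates) at each covered cytidine against its position from the 5' end of the gene (nt), for NAT10-WT NaCNBH3 (red), Wildtype NaCNBH3 (orange) and NAT10-WT mock (grey), which are drawn 0.5 nt apart. Each gene has 1 cytidine over 1% in NAT10-WT, between 1.31% (SNORD18A) and 14.4% (SNORD126).

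The CCG context was common among C/D box snoRNAs and most such cytidines were at background. Of 166 SNORD genes with covered cytidines, 55 held at least 1 covered CCG, with 80 middle cytidines in all. Of these, 9 had a mean over 1% in NAT10-WT NaCNBH3 libraries, and all 9 were among the 43 followed by T. They were the 6 members and the corresponding cytidine of SNORD116-17, SNORD116-18 and SNORD116-19, 3 copies of the imprinted SNORD116 cluster, which had 11.6%, 4.73% and 5.88% already in NAT10-WT mock libraries. The next lower CCG cytidine was in SNORD116-15, with 0.562% in NaCNBH3 and 0.559% in mock libraries of NAT10-WT. The 74 CCG cytidines of the other SNORD genes had a median of 0.0919%, and outside CCG 20 of 2787 cytidines of the other SNORD genes exceeded 1%.

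**Figure D3:**
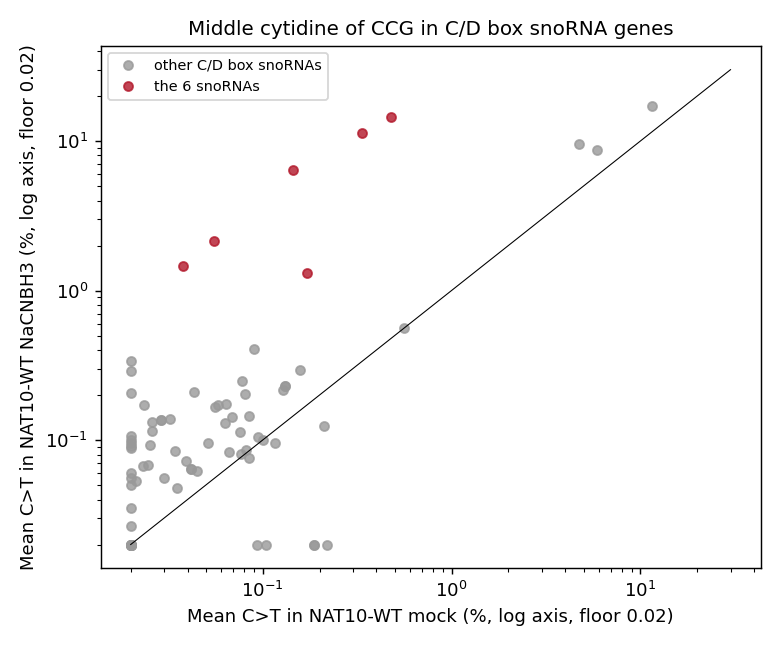
Mean C>T at the middle cytidine of each of 80 covered CCG triplets in C/D box snoRNA genes, NAT10-WT mock (horizontal) against NAT10-WT NaCNBH3 (vertical), in percent on log axes with values under 0.02 drawn at 0.02. The line marks equal values. The 6 members (red) lie far above the line, and the 3 SNORD116 copies at the upper right are high in both treatments.

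Wildtype cells had lower C>T than NAT10-WT cells at all 6 sites in both replicates. The Wildtype means were 34.8% of the NAT10-WT level at SNORD126, 54.7% at SNORD87, 34.9% at SNORD18B, 30.2% at SNORD18A, 21.9% at SNORD46 and 17.6% at SNORD18C. Fisher's exact test called 5 of the 5 member cytidines tested lower in Wildtype, where it called 8.04% of 808 C>T positions lower over all genes. By limma on log2 odds over 42190 cytidines, 0 of the 6 sites passed and 3 (SNORD46, SNORD18B and SNORD18C) had an unadjusted p under 0.05, beside 2 positions called lower over all genes (0.00474%) and 1649 with an unadjusted p under 0.05 in either direction. The NAT10-WT libraries entered the choice of the members, so nothing is read from these counts.

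In NAT10-deficient cells C>T at the sites was low, under 1% in every library, except at SNORD87 in both and SNORD126 in 1 of the K290A libraries. Averaged over the 2 NaCNBH3 libraries, SNORD126 had 0.204% in FKBP, 0.0760% in NAT10(-), 0.477% in E389L, 0.391% in H537A and 0.471% in G641E. SNORD18B had no T in FKBP (0 of 714 and 0 of 622 reads, which allows 0.420% and 0.482%) and in G641E (0 of 460 and 0 of 254, which allows 0.652% and 1.18%), and 0.289% or 0.363% in NAT10(-) and E389L. SNORD46 had between 0.0847% (K290A) and 0.167% (FKBP) in the 6 genotypes, SNORD18A between 0 and 0.135%, and SNORD18C between 0.0370% and 0.298%. The 0.298% of SNORD18C was in H537A, where replicate 2 had 1 T in 168 reads.

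By Fisher's exact test against NAT10-WT, 5 of 5 tested members were lower in FKBP, NAT10(-), E389L and G641E cells. In K290A and H537A cells 4 were lower, and SNORD18C did not pass. Replicate 2 of SNORD18C had 0 T in 116 reads in K290A and 1 in 168 in H537A. Over all genes 8.11%, 8.47%, 7.83%, 6.78%, 8.43% and 7.01% of C>T positions were lower, in the order FKBP, NAT10(-), E389L, G641E, K290A and H537A. By limma 3 of 6 sites were lower in FKBP and in NAT10(-), namely SNORD87, SNORD126 and SNORD18B, and 2 in each mutant, namely SNORD46 and SNORD18B in K290A and SNORD87 and SNORD18B in the others. The share lower over all genes was 0.0995% in FKBP, 0.107% in NAT10(-), and was for K290A 0.0853%, for E389L 0.0806%, for H537A 0.0711% and for G641E 0.0521%. With the replicate number as a block SNORD126 was no longer called in FKBP, SNORD18A was called in E389L, and the cytidines lower over all genes in G641E rose from 22 to 41. With 1 library left out, the lowest number of sites called was 2 in FKBP, 1 in NAT10(-), 0 in K290A (without any library of K290A or NAT10-WT), 0 in E389L (without E389L replicate 1 or NAT10-WT replicate 2), 1 in H537A (without any library of H537A or NAT10-WT) and 2 in G641E. NAT10(-) had 1 without NAT10(-) replicate 1 or either NAT10-WT library. Over all genes the cytidines called lower then fell to as few as 2 (FKBP, from 42), 1 (NAT10(-), from 45), 0 (K290A, from 36), 0 (E389L, from 34), 1 (H537A, from 30) and 11 (G641E, from 22). These members pass the filter of the Fisher rule through the NAT10-WT libraries, where they are high and which entered the choice of members, so nothing is read from these counts.

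SNORD87 C34 kept part of its NAT10-WT level in K290A cells. Of its reads, 129 of 3017 (4.28%, exact 95% interval 3.58% to 5.06%) and 24 of 821 (2.92%, 1.88% to 4.32%) held T in the K290A NaCNBH3 libraries, beside 2 of 3321 (0.0602%) and 7 of 2740 (0.256%) in K290A mock. The mean of 3.60% ± 0.956 (SD, n = 2) was 31.9% of that in NAT10-WT, 37.3% in replicate 1 and 26.4% in replicate 2. Both K290A libraries lay below both Wildtype libraries and above all libraries of every other NAT10-deficient genotype.

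In the other NAT10-deficient genotypes SNORD87 C34 had 1 of 1680 and 1 of 1518 reads in FKBP and 2 of 1385 and 2 of 2285 in NAT10(-). The other helicase mutant, E389L, had 7 of 2086 and 6 of 1099 reads (0.336% and 0.546%). The GNAT mutants had 2 of 965 and 1 of 675 reads in H537A and 3 of 1017 and 3 of 865 in G641E. Their highest value, 0.546% in E389L replicate 2, had an interval that reached 1.18%, below the lower bound in either K290A library.

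SNORD87 passed the test of NaCNBH3 against mock within K290A in both replicates (Fisher's exact test, Benjamini-Hochberg adjusted p = 2.65e-37 and 5.63e-09). It was the only member with enough T reads to be tested in both, and the K290A values were known when the members were chosen. In that comparison 3.74% of 722 C>T positions over all genes were called. The test counts single reads, so its p-values leave out the spread between replicates. In FKBP, NAT10(-), E389L, H537A and G641E no member cytidine had enough T reads in both replicates to be tested, so the absence of member calls there is no result. The rule called 4.7%, 3.68%, 3.7%, 4.4% and 3.7% of the positions of other genes that it could test.

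Among NaCNBH3 libraries, limma called SNORD87 C34 higher in K290A than in NAT10(-) cells (log2 odds ratio 4.72, SE 0.507, adjusted p = 0.00850). It was the only cytidine of 42190 called in that comparison in this direction (0.00237%), with 3245 at an unadjusted p under 0.05 in either direction. It no longer passed without K290A replicate 1, K290A replicate 2 or NAT10(-) replicate 2, with adjusted p up to 0.385. NAT10(-) libraries also entered the choice of members. No member site was higher than NAT10(-) in FKBP, E389L, H537A or G641E, where 0 cytidines were called higher over all genes (0%) and 1334 to 2299 had an unadjusted p under 0.05 in either direction. By Fisher's exact test on each replicate, a comparison added after the levels were seen, SNORD87 was higher in K290A than in each of FKBP, NAT10(-), E389L, H537A and G641E. It was the only member tested in both replicates. SNORD87 passed the filter of a mismatch share over 1% only through the K290A libraries, so nothing is read from these calls. Over all genes that test called 0.397%, 1.84%, 1.06%, 1.27% and 2.09% of C>T positions higher.

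Against the mean of the other 3 mutants, a contrast built after the high K290A level was seen and so no independent evidence of it, SNORD87 C34 had a log2 odds ratio of 3.42 in K290A (SE 0.414, limma adjusted p = 0.0361) and was the only cytidine called (0.00237%), with 6141 at an unadjusted p under 0.05. With the replicate number as a block the ratio was the same and the adjusted p was 0.0654. It also missed the threshold without any 1 library of K290A, H537A or G641E, with adjusted p up to 0.314. The contrast of both helicase mutants against both GNAT mutants gave 2.13 (SE 0.358, adjusted p = 0.344) at SNORD87, with 0 cytidines called over all genes (0%) and 4433 at an unadjusted p under 0.05.

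**Figure D4:**
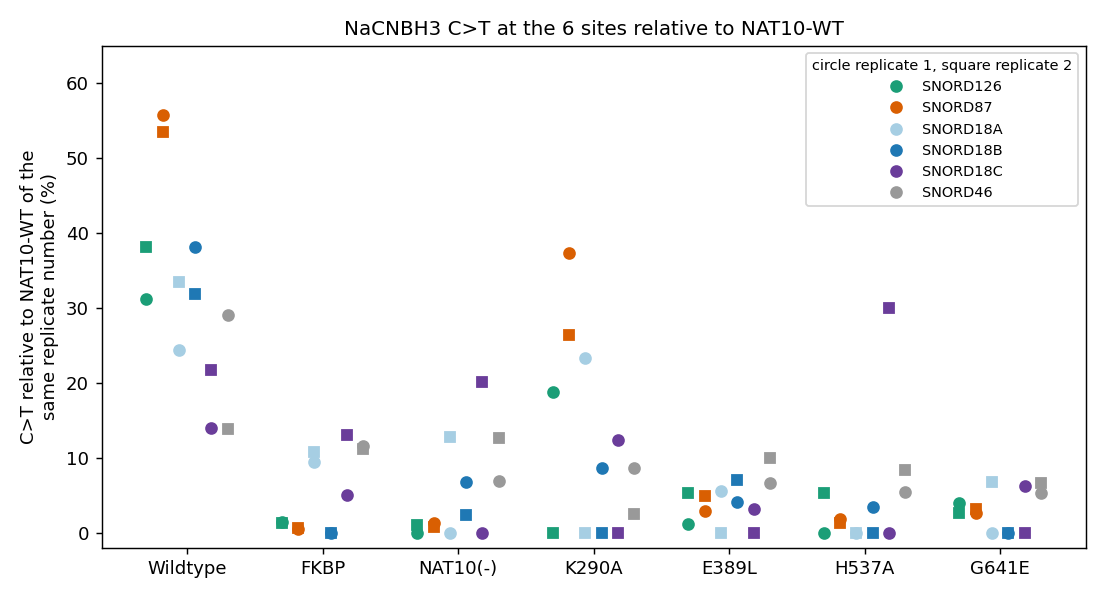
C>T in NaCNBH3 libraries at each site as a percentage of the NAT10-WT library of the same replicate number, by genotype. Colours mark the 6 snoRNAs, circles replicate 1 and squares replicate 2. In K290A, SNORD87 has 37.3% and 26.4% and is the only site well above 0 in both replicates.

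The other members in K290A cells rested on replicate 1. SNORD126 C31 had 20 of 747 reads (2.68%, interval 1.64% to 4.11%) there and 0 of 115 in replicate 2, a depth that allows up to 2.61%. It passed the Fisher rule against mock in replicate 1 (adjusted p = 1.28e-06) and not in both, and its limma log2 odds ratio against NAT10(-) was 2.68 (SE 0.878, adjusted p = 0.458). SNORD18B had 8 of 1508 and 0 of 128 reads in K290A, SNORD18C 7 of 2455 and 0 of 116, and SNORD18A 7 of 3203 and 0 of 155. SNORD46, which had depth in both replicates, had 10 of 7430 and 1 of 2873 reads (0.135% and 0.0348%), which was 8.65% and 2.54% of NAT10-WT. Whether the share kept differed between SNORD87 and another member was not tested.

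Without NaCNBH3 the sites showed little C>T in any genotype. Mean mock levels ranged from 0 to 0.481% at SNORD126, 0 to 0.337% at SNORD87, 0 to 0.171% at SNORD18A, 0 to 0.360% at SNORD18B, 0 to 0.349% at SNORD18C and 0.0352% to 0.0840% at SNORD46. Wildtype and NAT10-WT mock libraries were compared with the mock libraries of the 6 deficient genotypes by limma at 7604 cytidines. SNORD126 C31 was the only member with enough T reads to be tested and had a log2 odds ratio of 1.18 (SE 0.622, adjusted p = 0.796), where 0.355% of cytidines were called in either direction.

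No member differed in depth from NAT10-WT beyond the test's threshold in any genotype. Read depth per position, averaged over mock and NaCNBH3 and set against the median SNORD gene of the library, was compared with NAT10-WT over 157 gene entries (SNORD38B and SNORD3D count as 2 entries each). Over all entries limma called 1, SNORD86 in K290A cells (0.637%), and 0% in the other genotypes, where 0 to 30 entries had an unadjusted p under 0.05. With the replicate number as a block 23 entries were called in Wildtype, 5 in K290A and 2 in G641E, with no member among them.

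The largest member differences were in SNORD18B, with log2 differences from NAT10-WT of -0.68 in G641E, -0.58 in K290A and -0.54 in H537A (SE 0.33 each), none of which passed. SNORD87 differed from NAT10-WT by -0.34 (SE 0.16) in Wildtype, by 0.16 (SE 0.16) in K290A, and by -0.01 (G641E) to 0.24 (H537A) elsewhere. SNORD126 ranged from -0.36 (K290A) to 0.15 (FKBP) and SNORD46 from -0.33 (Wildtype) to 0.32 (H537A). In K290A cells SNORD18C stood at 0.44 in replicate 1 and -1.29 in replicate 2 on the log2 scale, beside -0.04 and -0.01 in NAT10-WT, and SNORD18A at 0.84 and -0.63, beside 0.59 and 0.07. Whether the depth of that library bears on the C>T values was not tested, and without replicate 1 SNORD18C was called (log2 difference -1.26, limma adjusted p = 0.0208), as 1 of 8 entries lower and beside 2 higher of the 157. These values average the mock and NaCNBH3 libraries of the same RNA, which differed in K290A replicate 2. The median depth over SNORD18C was 920 reads in mock and 114 in NaCNBH3. For SNORD18A it was 1728.5 and 155, and for SNORD46 6406 and 2845. In bulk RNA, fewer cells with an RNA and less RNA per cell cannot be told apart.

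**Figure D5:**
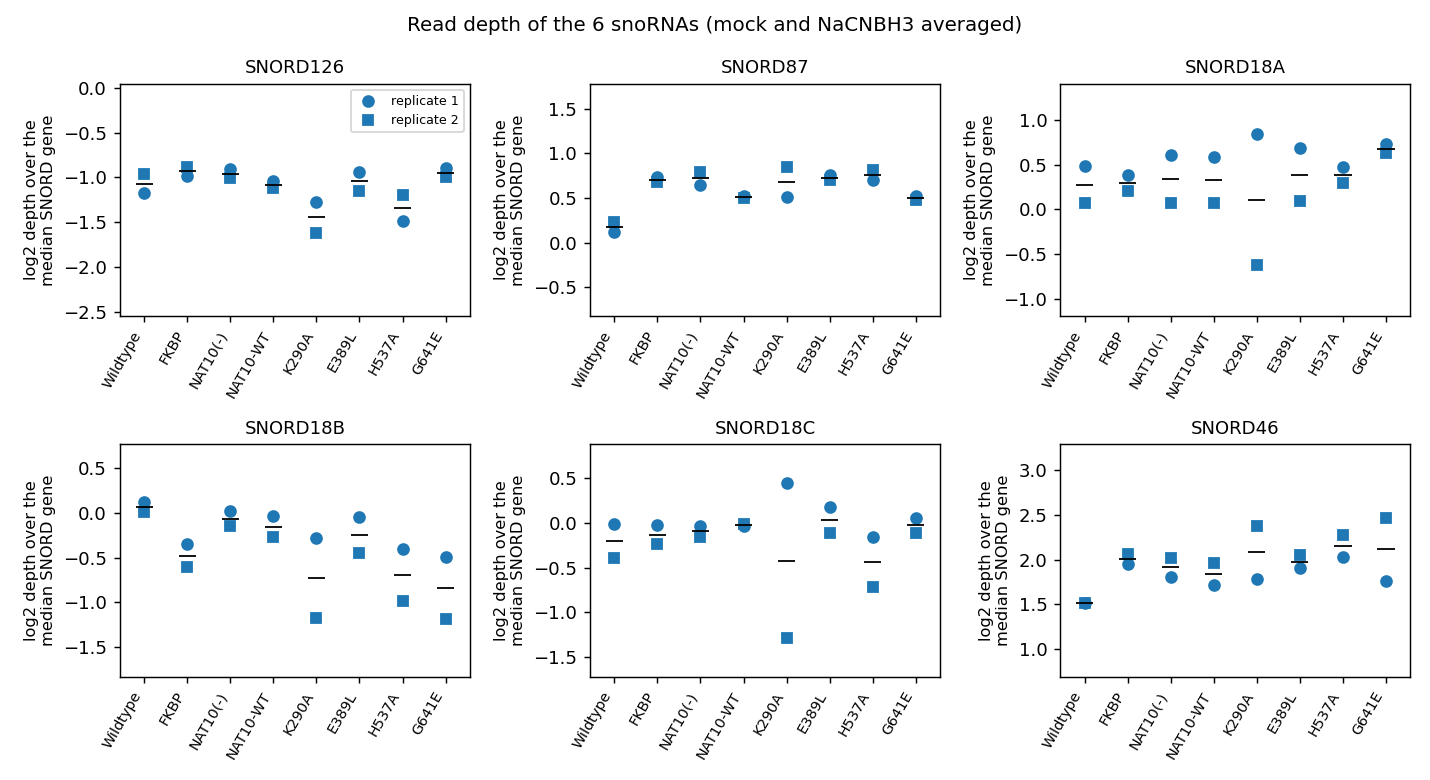
log2 read depth of each snoRNA over the median SNORD gene of the same library (mock and NaCNBH3 averaged), by genotype, circles replicate 1 and squares replicate 2, lines the mean. Every panel spans the same log2 range. The replicates overlap between most genotypes, and K290A replicate 2 is low for the 3 SNORD18 genes. At SNORD18B, replicate 2 is also low in G641E (-1.19) and H537A (-0.99), beside -1.18 in K290A.

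Other RNAs were measured beside the members. SNORD16, the other RPL4 snoRNA, lay between -0.28 (K290A) and 0.22 (H537A) of NAT10-WT. SNORD13, the guide of 18S acetylation, lay between -0.08 (Wildtype) and 0.54 (G641E). Neither passed. Of the host transcripts, RPL4 exons reached 30 reads in all 32 libraries, SNHG6 in 14 and CCNB1IP1 in 12. The C/D box protein genes FBL, NOP56, SNU13 and NOP58 were covered in 32, 31, 31 and 5 libraries.

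The sites elsewhere whose log2 odds over the 16 NaCNBH3 libraries were most like the mean of the 5 called member sites all had a copy in the rRNA precursor. Among 42154 other cytidines, with identical copies counted once, Pearson's r was 0.939 for 18S C1317, 0.923 for nt 2278 of the 45S precursor in its 5' spacer, 0.914 for 18S C179, 0.90 for nt 7866 of the precursor, in a later spacer, and 0.845 for 18S C1842. Positions are counted on RefSeq RNA18SN2 and RNA45SN2, and the reads are shared by 8 or 9 copies in the genome each. All values are of the copy with the highest r, which for 18S C1317 was at chr12:20551463 within PDE3A. The 16 points share genotype, library and depth, so these values are a description. The first of these sites had 0.130% in K290A, 0.125% in NAT10(-) and 1.66% in NAT10-WT, and 18S C1842 had 8.29%, 5.48% and 65.7%.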

How the data were processed

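Base counts at 32 libraries of Hep3B RNA were used. Per the labels and the study's methods, the authors depleted rRNA in part, fragmented RNA and ligated an adapter to it (labels and methods differ in the order), treated 1 part with NaCNBH3, reverse transcribed both, trimmed reads, aligned them to GRCh38, removed duplicates by molecular identifier and wrote a pileup per strand (submitters' processing notes: cutadapt 4.2, UMI-tools 1.1.5, STAR 2.7.9a, SAMtools 1.6). The deposited values are raw counts of the 4 bases at positions with at least 30 reads, not normalized. The highest depth was 20029 to 20049 reads in every library. Positions under 30 reads are missing, so a lower depth removes positions, and fragments inside near-identical genes can be split between them.

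Exons were taken from GENCODE v44 and sequences from the GRCh38 genome, and C>T was T over all reads. The members, lists and tests were chosen with earlier results of these data known. Named positions were every member cytidine called against mock in any genotype, the cytidine of SNORD18A and SNORD18C aligned with that of SNORD18B, in a gene without a call the cytidine with the highest mean over NAT10-WT and Wildtype NaCNBH3 libraries, and mismatches averaging over 5% in mock. Other genes named were SNORD13, the host genes with their other snoRNAs, and the 5 sites most like the called members. The host gene, position and sequence of SNORD46 are not reported here. Mock and NaCNBH3 libraries of 1 replicate share their RNA and were compared per replicate by Fisher's exact test, two-sided (Benjamini-Hochberg adjusted p under 0.05 in both, same direction). Genotypes were fitted with limma 3.58.1 in R 4.3.3 on log2((T + 0.5)/(other + 0.5)) over the 16 NaCNBH3 (or mock) libraries, at cytidines with 30 reads in all and a pooled T share of at least 0.1%, adjusted over all of them. The gene depth was the mean over exon positions with 30 reads in all 32 libraries, fitted by limma for SNORD genes with such depth at 50% or more of their positions, and centred on the median gene. Intervals are exact binomial (95%), and a count of 0 was read as allowing up to 3 counts. The Fisher rule and the limma fits of C>T and of depth were tested on simulated data, and the intervals were not. The counts simulated for Fisher's test had no spread between libraries beyond counting. False calls of the limma fit of C>T lay mostly at cytidines with few T reads, and a floor of 50 T reads was therefore added as an alternative.

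The labels name the replicate number as a batch, so genotypes of the same number may pair. Over 798 cytidines the replicate difference correlated between genotypes with r from -0.167 to 0.372 (median 0.136, over 0.1 in 18 of 28 pairs). No 2 libraries were copies (at most 3.88% of shared positions had equal depth). Insertion and deletion columns were not used.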

Additional observations from a re-analysis of the deposited data

Results flagged for a closer look

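SNORD87 C34 had a higher C>T in 1 mutant than in the others. In NaCNBH3 libraries its log2 odds of C>T were 3.42 higher in K290A than the mean of E389L, H537A and G641E (SE 0.414, limma adjusted p = 0.0361), a contrast added after the levels were seen. With the replicate number as a block the adjusted p was 0.0654, and it also missed the threshold without any 1 library of K290A, H537A or G641E (up to 0.314). The 2 K290A libraries had 4.28% and 2.92%, and the 6 libraries of the other mutants between 0.148% and 0.546%. Its mean depth relative to other C/D box snoRNAs in K290A cells differed from NAT10-WT by 0.16 (log2). The replicates stood at 0.52 and 0.84 in K290A, beside 0.53 and 0.50 in NAT10-WT. Among the other members, SNORD126 had 2.68% (20 of 747 reads) in K290A replicate 1 and 0 of 115 reads in replicate 2. SNORD46 had 0.135% and 0.0348% in the same K290A libraries.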

How the results depend on the processing

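Of 287 alternative counts of called members for 36 results, 260 equalled the count given or stayed within 1.5 times it. The other 27 did not. Adding 5 reads to each count left SNORD87 in K290A at a log2 odds ratio of 3.38 against NAT10(-) (limma adjusted p = 0.0805), so that 0 sites were called, and gave 1 site lower than NAT10-WT in K290A and 1 in H537A. Over all genes 36 of 42190 cytidines were then lower in K290A and 39 in H537A. At 100 reads 4 sites were lower in E389L, where 46 of 27320 cytidines were lower over all genes. With at least 50 T reads over the 16 libraries, an alternative chosen after seeing simulated data, 4 sites were lower in each of E389L, H537A and G641E, and 1 site, SNORD87, was called between helicase and GNAT mutants. Over all genes 50, 51 and 52 of 15340 cytidines were lower in these mutants, in that order. Between helicase and GNAT mutants 1 cytidine was lower and 1 higher over all genes. Over all genes, NaCNBH3 against mock in K290A called 27 of 722 C>T positions higher with both replicates. The same comparison called 162 of 1336 without replicate 2 and 83 of 859 without replicate 1. Leaving out 1 replicate gave 1 to 2 members higher with NaCNBH3 in K290A (2, with SNORD126, without replicate 2). For sites lower than NAT10-WT it gave 1 to 2 in NAT10(-), 0 in K290A, 0 to 3 in E389L and 1 in H537A, for sites higher than NAT10(-) in K290A 0 to 1, and for members called by depth in K290A 0 to 1. SNORD87 in K290A against NAT10(-) then had adjusted p from 0.0479 to 0.385, and was lost without K290A replicate 1, K290A replicate 2 or NAT10(-) replicate 2.

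Against the mean of the other mutants, the adjusted p of SNORD87 was 0.0528 without a trend, 0.0516 with 30 reads in 12 of the 16 libraries, and 0.022 to 0.314 with 1 library left out. The calls over all genes in that contrast rose from 1 to 8299 lower and 45 higher with 5 reads added, and to 1825 and 27 without E389L replicate 1. With the replicate number as a block, SNORD87 in K290A against NAT10(-) had an adjusted p of 0.0232, and apart from the calls given with the results above no call of a member changed. The cause of these changes was not tested. Depth limited K290A replicate 2, where 115 to 155 reads allowed up to 1.94% to 2.61% at SNORD126 and the SNORD18 sites. It also limited H537A replicate 2. There SNORD18B had 0 T in 170 reads, which allowed up to 1.76%, and SNORD18C had 1 T in 168.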
